A study of Mus musculus with 18 samples.

Results

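A set of 10 genes whose RNA was lower in skeletal muscle of Nurr1 transgenic mice than in that of their controls was followed across all 6 groups of the series. They are Htra4, Odf3l2, Shc2, C2cd4c, Rasd2, Tpx2, Ctxn3, Sorcs1, Cd28 and Prss55. They were chosen by their deposited expression values in these 2 groups, so the transgene comparison is given as a description without a test. All 10 had a row among the 12558 genes of the deposited table, and all 10 were among the 12524 genes that reached a value of at least 1 in at least 3 libraries.

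The series holds 18 RNA-seq libraries of mouse skeletal muscle, 3 from each group, and every group was on its diet for 10 weeks. In 4 groups the mice were wild type: normal chow (WT-NC), chow with AQ (WT-NC-AQ), a high-fat diet or HFD (WT-HFD), and HFD with AQ (WT-HFD-AQ). AQ is a drug given in drinking water, and the labels do not spell the abbreviation out. The remaining groups were both on HFD without AQ: Nurr1 transgenic mice (HFD-Nurr1-mTg) and wild-type mice labelled as the transgenic control (HFD-WT). No transgenic group was kept on chow or given AQ. The sources used here do not give the promoter that drives the transgene, the number of founder lines, or the mice's age, sex and strain. Values are the authors' CPM, reads of a gene relative to all reads of its library, after a further scaling between libraries, and are called scaled CPM.

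NURR1 is the protein of Nr4a2. It is an orphan nuclear receptor of the NR4A family, which binds DNA as a monomer at the NBRE element (AAAGGTCA) or as a dimer at the longer NurRE element. In skeletal muscle the NR4A receptors are known as genes induced by exercise and by adrenergic signalling, with roles in glucose and fat metabolism. The 10 genes belong to no common pathway. They encode secreted or membrane-bound proteases (Htra4, Prss55), a signalling adaptor and a small GTPase (Shc2, Rasd2), and membrane proteins (Ctxn3, Sorcs1). The others encode a spindle protein (Tpx2), a costimulatory receptor of T cells (Cd28), a protein named after its C2 domain (C2cd4c) and a protein named after the outer dense fibres of sperm tails (Odf3l2).

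The labels were checked on Nr4a2 itself. Its 3 transgenic libraries lay at 18.8, 30.1 and 19.8 scaled CPM and its control libraries at 1.86, 2.30 and 1.57, and the highest value in any other library was 4.79 (WT-NC-AQ replicate 1). The table lists genes by symbol, so transgene reads are not separated from those of the endogenous gene on chromosome 2 (57106830 to 57124003, GRCm38). Among its relatives, Nr4a1 was lower in each transgenic library (111, 109.9 and 128) than in each control library (184, 258 and 255), whereas for Nr4a3 the transgenic (2.81, 0.333 and 0.468) and control libraries (1.99, 1.98 and 2.84) overlapped. The tissue label was checked on 8 muscle fibre genes, among them Myh4 and Acta1, which summed to between 118298 and 169599 scaled CPM in every library. Libraries held 10404895 to 16082994 recovered reads, so that 3 reads were worth 0.191 to 0.277 scaled CPM, which limits the precision for the low genes C2cd4c (5 to 28 reads per library) and Prss55 (9 to 50 reads).

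Of the 10 genes, 3 are direct neighbours. C2cd4c (79606854 to 79614025), Shc2 (79618051 to 79637918) and Odf3l2 (79639526 to 79645738) follow each other on the minus strand of chromosome 10 (GRCm38), with gaps of 3.91 kb and 1.61 kb between the RefSeq gene bodies and no other measured gene in between. RefSeq promoters, from 250 bases before to 50 bases after the annotated start, were on hand for 4 of the 10 genes: C2cd4c, Shc2, Rasd2 and Sorcs1. The promoters of the adjacent pair, and that of Rasd2, the only member called in a diet comparison (in mice given AQ), are shown because NURR1 is a DNA-binding factor; each is written 5′ to 3′ on the gene's strand (RefSeq, GRCm38.p6).
Shc2, chr10:79637869-79638168, minus strand: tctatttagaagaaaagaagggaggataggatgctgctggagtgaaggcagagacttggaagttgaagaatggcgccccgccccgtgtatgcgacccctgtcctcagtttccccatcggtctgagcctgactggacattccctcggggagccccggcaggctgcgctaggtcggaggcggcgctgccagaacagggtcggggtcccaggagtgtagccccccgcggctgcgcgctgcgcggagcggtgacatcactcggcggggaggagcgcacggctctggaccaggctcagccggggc
C2cd4c, chr10:79613976-79614275, minus strand: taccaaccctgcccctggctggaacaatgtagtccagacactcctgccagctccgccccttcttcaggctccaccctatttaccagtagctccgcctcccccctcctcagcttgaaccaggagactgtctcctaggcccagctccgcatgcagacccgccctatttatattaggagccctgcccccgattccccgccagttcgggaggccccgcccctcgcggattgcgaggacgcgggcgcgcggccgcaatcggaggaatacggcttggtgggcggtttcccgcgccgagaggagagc
Rasd2, chr8:75213694-75213993, plus strand: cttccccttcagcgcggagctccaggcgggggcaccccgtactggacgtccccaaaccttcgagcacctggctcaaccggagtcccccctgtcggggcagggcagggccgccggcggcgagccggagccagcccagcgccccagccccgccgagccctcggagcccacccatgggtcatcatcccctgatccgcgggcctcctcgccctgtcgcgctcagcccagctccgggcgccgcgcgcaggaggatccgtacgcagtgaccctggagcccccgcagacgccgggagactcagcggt
Nothing is in capitals because none of the letters searched was found. The search covered both strands for the NBRE (AAAGGTCA), the shorter core AGGTCA that lies within it, and the 2 arms of the NurRE (TGATATTT and AAATGCCA), and none of the 5 member promoters (C2cd4c has 2 starts) held a match. Among all 32851 promoters of the same length, 1.51% held the NBRE, 16.3% the core AGGTCA, and 1.32% and 1.11% the NurRE arms. The member promoters had a GC content of 65.0% to 80.7%, against a median of 52.7% over all promoters. An absent match says only that these letters are not in this window.

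Htra4 had the lowest transgenic level relative to its controls. It encodes a secreted serine protease of the HtrA family, best known from placenta, and lies on chromosome 8 (25024929 to 25038962, minus strand, GRCm38). In the transgenic libraries Htra4 lay at 1.11, 1.20 and 1.67 scaled CPM and in the controls at 10.8, 21.5 and 17.6. The control mean, 16.6 ± 5.43 (SD, n = 3), was 12.6 times the transgenic mean of 1.33 ± 0.302, a log2 difference of -2.88 ± 0.44 (SE) on the log2(value + 1) scale. This was the largest drop of all 12524 genes by that measure. All 15 other libraries lay above the 3 transgenic ones. Yet Htra4 also varied widely among wild-type mice. On chow it was at 4.36, 9.32 and 24.6, on chow with AQ at 24.5, 12.6 and 15.6, on HFD at 6.22, 3.74 and 12.9, and on HFD with AQ at 5.74, 6.16 and 7.86. The 3 chow libraries alone differed by more than 5 times, and the lowest wild-type library, HFD replicate 2, still held more than 2 times the highest transgenic value.

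Odf3l2 came next in that order. Its 3 transgenic libraries were closely grouped at 8.79, 7.25 and 8.62 scaled CPM, whereas the controls were spread over 14.9, 95.7 and 64.8. The means were 8.22 ± 0.844 and 58.5 ± 40.8 (SD, n = 3), and the log2 difference was -2.34 ± 0.48 (SE). Its size rested on which control was counted: it was -3.12 without control replicate 1 and -1.82 without control replicate 2. The wild-type groups of the diet and AQ experiment give a wider base. Odf3l2 was at 49.8, 49.7 and 41.6 on chow, 76.7, 47.6 and 87.0 on chow with AQ, 63.3, 74.3 and 36.9 on HFD, and 26.9, 76.9 and 52.0 on HFD with AQ. All 12 of these libraries lay at least 3 times above the highest transgenic one, and the group ranges overlapped among themselves.

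Shc2 encodes an adaptor of the Shc family, which binds phosphorylated receptor tyrosine kinases and passes the signal towards Ras through Grb2. It lay at 5.02, 5.85 and 7.95 scaled CPM in the transgenic libraries and at 14.3, 25.4 and 22.3 in the controls (6.28 ± 1.51 against 20.7 ± 5.76, log2 difference -1.56 ± 0.23). The other wild-type libraries were close to those controls. They read 12.8, 19.7 and 23.2 on chow, 28.5, 21.6 and 27.6 on chow with AQ, 19.3, 18.8 and 24.7 on HFD, and 16.5, 26.7 and 18.4 on HFD with AQ. No wild-type library overlapped the transgenic group.

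C2cd4c, the next gene on that strand, encodes a protein with a calcium-dependent C2 domain and is expressed far lower. The transgenic libraries held 0.665, 0.333 and 0.534 scaled CPM and the controls 1.03, 1.59 and 2.09. The log2 difference was -0.75 ± 0.15, in 62nd place among all genes, although the ratio of the means (3.07 times) was near that of Shc2 (3.29 times), because adding 1 to such low values compresses the difference. C2cd4c was at 0.951, 1.11 and 1.28 on chow, 1.34, 1.46 and 1.39 on chow with AQ, 1.11, 0.913 and 1.47 on HFD and 0.892, 0.910 and 0.740 on HFD with AQ. The lowest wild-type value, 0.740, lay above the highest transgenic value, 0.665, by less than the worth of 1 read in that library (0.0924), so its separation is the narrowest of the 3 neighbours.

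**Figure D1:**
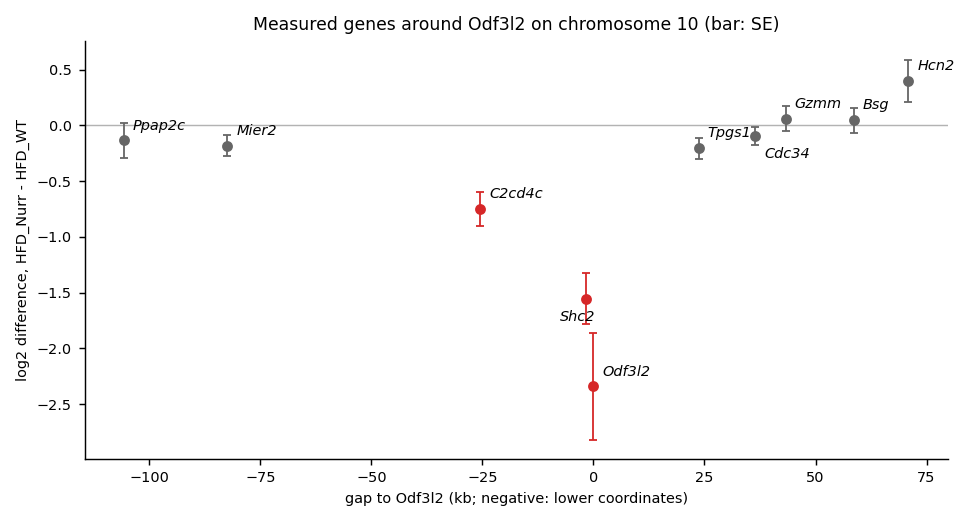
Log2 difference (HFD-Nurr1-mTg minus HFD-WT, on log2(value + 1), bar: SE) of the measured genes around Odf3l2, against their gap to Odf3l2 in kb. Odf3l2, Shc2 and C2cd4c (red) lie at -2.34, -1.56 and -0.75, and the genes drawn in grey lie between -0.21 and 0.40.

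The genes that flank this run did not share its size. On the low-coordinate side Mier2 was at 21.5 ± 1.79 in transgenic and 24.5 ± 0.69 in control libraries (log2 difference -0.18 ± 0.09), and on the other side Tpgs1 was at 15.7 ± 0.91 and 18.2 ± 0.83 (-0.21 ± 0.09). Their groups did not overlap, but both differences were small beside those of the run. Beyond them Cdc34 (-0.10), Gzmm (0.06), Bsg (0.05) and Hcn2 (0.40) overlapped between the groups. Whether the 3 genes also vary together was looked at in the 12 libraries of the diet and AQ groups, which did not serve to choose them, after each group's mean was subtracted. C2cd4c and Shc2 gave a Pearson correlation of 0.60 (Spearman 0.57, n = 12 libraries), Odf3l2 and Shc2 0.27 (Spearman 0.23), and Odf3l2 and C2cd4c -0.53 (Spearman -0.48). These libraries share a scaling, and the values are descriptions.

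**Figure D2:**
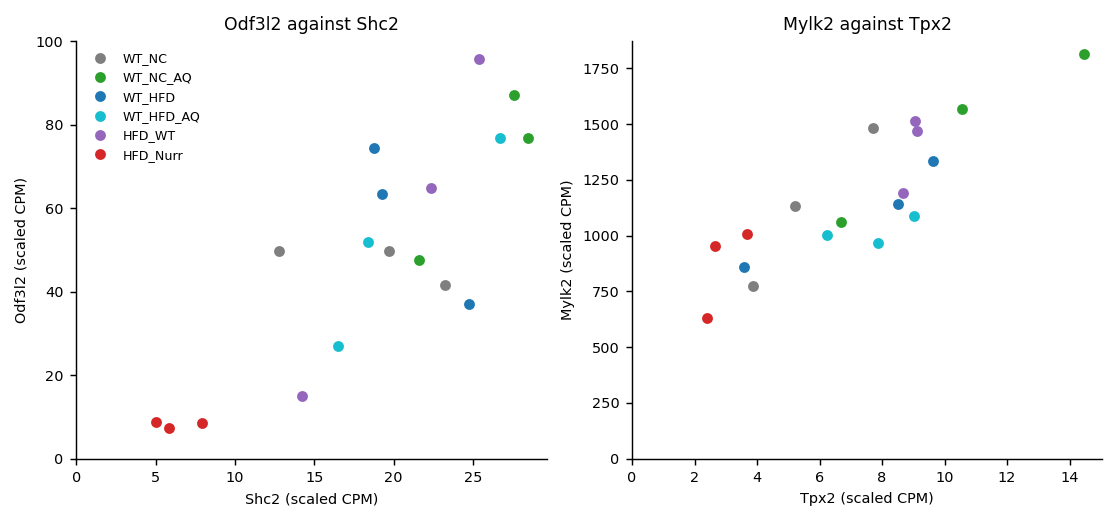
Scaled CPM per library of Odf3l2 against Shc2 and of Mylk2 against Tpx2, coloured by group. The transgenic libraries (red) sit apart at the lower left for Odf3l2 and Shc2, and Mylk2 runs along a line with Tpx2 through the other groups.

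Rasd2 encodes Rhes, a small GTPase of the Ras family known from the striatum, and lies on chromosome 8 (75213944 to 75224113, plus strand). The transgenic libraries lay at 37.1, 40.0 and 43.1 scaled CPM and the controls at 134, 108 and 112 (40.1 ± 3.00 against 118 ± 14, log2 difference -1.53 ± 0.15). Transgenic libraries were again below all others. Among the other wild-type groups Rasd2 was split by diet, at 93.9, 84.6 and 111 on chow and 109, 79.6 and 95.2 on chow with AQ, against 61.8, 52.7 and 72.1 on HFD and 78.9, 51.6 and 59.1 on HFD with AQ. The controls of the transgenic mice, although on HFD, lay above the untreated HFD group by 0.91 ± 0.15 on the log2 scale, with no overlap. Rasd2 was therefore 2.94 times lower than in its own controls and 1.55 times lower than in the untreated HFD group.

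Tpx2 encodes a spindle assembly factor that nucleates microtubules and activates the Aurora A kinase, and lies on chromosome 2 (152847964 to 152895321, plus strand). It was at 2.66, 2.39 and 3.67 scaled CPM in the transgenic libraries and at 8.67, 9.05 and 9.11 in the controls (2.91 ± 0.675 against 8.94 ± 0.240, log2 difference -1.36 ± 0.28). On chow it lay at 3.88, 5.22 and 7.70, on chow with AQ at 14.4, 6.69 and 10.5, on HFD at 8.51, 3.57 and 9.63, and on HFD with AQ at 6.24, 9.03 and 7.86. HFD replicate 2, at 3.57, lay within the transgenic range, and the other 14 libraries lay above it.

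Tpx2 is a marker of dividing cells in most tissues, so the other genes of mitosis were set beside it. Of 26 listed spindle and proliferation genes 12 were measured, and none was past the adjusted threshold between transgenic and control muscle, where 0.599% of all genes were (limma). Their median log2 difference was 0.04, against 0.00 over all genes. Aurka, the kinase that TPX2 activates, was at 13.9 ± 2.67 in transgenic and 8.53 ± 1.99 in control libraries (0.65 ± 0.18, limma adjusted p = 0.130). The summed level of the 3 measured proliferating cell markers (of 6 listed) ranged from 13.8 to 20.4 in transgenic muscle and from 10.2 to 13.5 in the controls, and Cdk1, Ccnb1 and Birc5 had no row. Aurka makes up most of this sum: over the 18 libraries it averaged 8.81, and the others averaged 1.55 and 0.950. The sum is therefore not separate from the value of Aurka. Aurka is among the listed spindle and proliferation genes, and 14 of these had no row, so dividing cells are covered only in part.

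The nearest measured gene downstream of Tpx2, Mylk2, was lower too. It encodes the myosin light chain kinase of skeletal muscle and starts 15.96 kb away. Mylk2 lay at 951, 629 and 1009 scaled CPM in transgenic and 1189.7, 1512 and 1468 in control libraries (log2 difference -0.71 ± 0.23), so the groups did not overlap. In the 12 libraries that did not serve to choose Tpx2, the pair correlated at a Pearson r of 0.91 (Spearman 0.90) after the group means were subtracted. By the same measure the other members, none of them on chromosome 2, correlated with Tpx2 at 0.05 (Odf3l2) to 0.85 (Ctxn3). A high value is thus not particular to neighbours. Levels of Mylk2 in the other groups ran from 775 (chow replicate 1) to 1814 (chow with AQ replicate 1), and the part of Mylk2 in the level of Tpx2 was not tested.

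**Figure D3:**
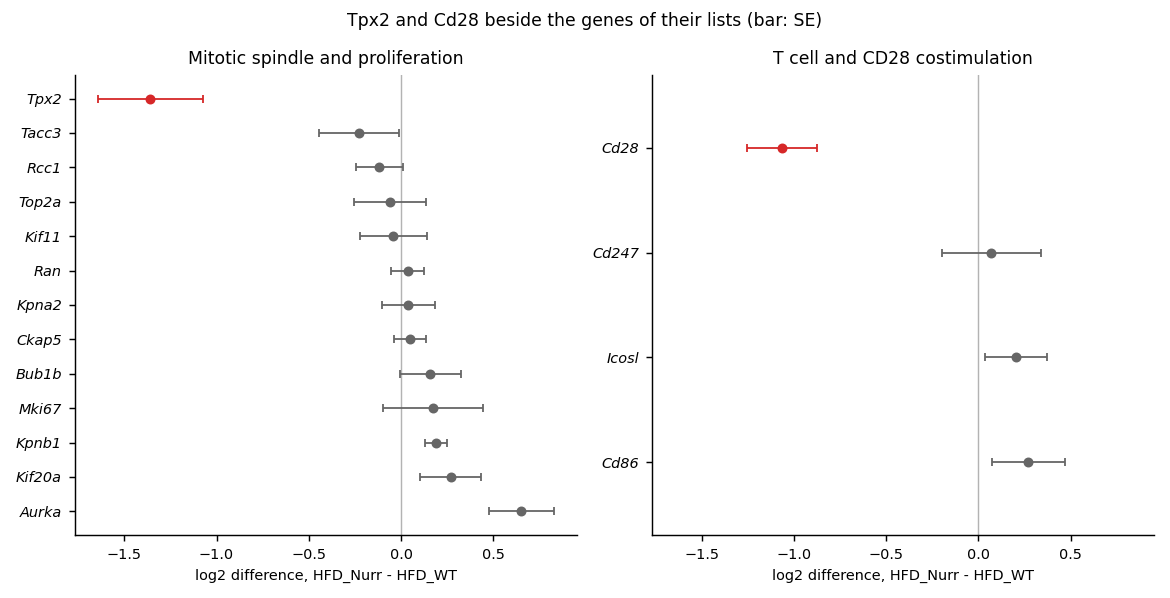
Log2 differences (HFD-Nurr1-mTg minus HFD-WT, bar: SE) of Tpx2 and Cd28 (red) beside the measured genes of their lists (grey). Tpx2 lies at -1.36 and Aurka at 0.65, and Cd28 at -1.06 with the 3 measured T cell and costimulation genes above 0.

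Cd28, on chromosome 1 (60716800 to 60773359, plus strand), encodes the costimulatory receptor by which T cells read CD80 and CD86 on antigen-presenting cells. It was at 1.70, 2.99 and 2.54 scaled CPM in transgenic libraries and 5.59, 6.75 and 5.83 in controls (2.41 ± 0.656 against 6.05 ± 0.613, log2 difference -1.06 ± 0.19). All other libraries were above the transgenic ones, at 5.23, 5.08 and 7.13 on chow, 4.65, 5.72 and 6.52 on chow with AQ, 8.57, 4.40 and 6.68 on HFD and 7.90, 6.58 and 6.47 on HFD with AQ. The means of the 5 wild-type groups lay between 5.63 and 6.98.

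Few other T cell genes were measured. Of 23 listed T cell and costimulation genes only Cd247, Cd86 and Icosl had rows, and Cd3e, Cd3d, Cd3g, Cd4, Cd8a and Lck had none. The 3 measured genes were all slightly above 0 (median log2 difference 0.20) and none was past the threshold. Cd86 and Icosl are ligands on antigen-presenting cells, not T cell genes. Cd247, the only measured T cell marker of 8, ranged from 1.40 to 2.27 in transgenic muscle and from 1.49 to 1.98 in the controls. The 4 measured leukocyte markers (of 7), led by Csf1r, summed to 49.3 to 58.3 and 33.7 to 65.3. In bulk muscle fewer cells of a type and less RNA per cell cannot be told apart.

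Ctxn3 encodes cortexin 3, a small membrane protein known from brain and kidney, on chromosome 18 (57468516 to 57478133, plus strand). The transgenic libraries lay at 15.6, 13.8 and 18.8 scaled CPM and the controls at 40.5, 40.8 and 37.9 (16.1 ± 2.54 against 39.7 ± 1.56, log2 difference -1.26 ± 0.20). On chow Ctxn3 lay at 51.7, 78.2 and 101, on chow with AQ at 66.0, 42.7 and 67.8, on HFD at 63.3, 46.4 and 59.4, and on HFD with AQ at 48.3, 61.5 and 58.2. Here the controls of the transgenic mice were themselves below every other wild-type library. An antisense gene, 4930511M06Rik, which also has a row, overlaps Ctxn3 in GENCODE vM21, whereas RefSeq places it 67.2 kb away. Where the overlap holds, their reads cannot be told apart without a stated use of strand.

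Sorcs1 encodes a sorting receptor with a Vps10 domain, studied in neurons and in insulin secretion, on chromosome 19 (50143299 to 50678646, minus strand). It was at 1.33, 1.60 and 1.54 scaled CPM in transgenic and 4.62, 3.73 and 4.41 in control libraries (1.49 ± 0.140 against 4.25 ± 0.465, log2 difference -1.08 ± 0.21). The other wild-type libraries ranged from 2.85 (chow replicate 1) through a median of 5.29 to 7.12 (HFD replicate 1), all above the transgenic group. Most measured genes of its list are retromer genes, not receptors. Of 9 measured Vps10 receptors and retromer genes (of 10 listed) none was past the threshold, and Vps35, the core of the retromer, was at 104 ± 5.17 and 105 ± 4.35.

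Prss55, a trypsin-like serine protease gene known from testis, lies on chromosome 14 (64075438 to 64090162, minus strand). It was at 0.961, 0.998 and 0.668 scaled CPM in transgenic and 3.21, 2.70 and 2.47 in control libraries (0.875 ± 0.181 against 2.79 ± 0.381, log2 difference -1.02 ± 0.21). On chow Prss55 lay at 1.90, 3.06 and 1.35, on chow with AQ at 2.75, 1.60 and 2.27, on HFD at 1.80, 0.747 and 2.01 and on HFD with AQ at 1.53, 1.75 and 1.39. HFD replicate 2 lay within the transgenic range and the other 14 libraries above it. Against the untreated HFD group the log2 difference was -0.39 ± 0.21 with overlap. Prss51, on the opposite strand, overlaps Prss55 and has no row.

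**Figure D4:**
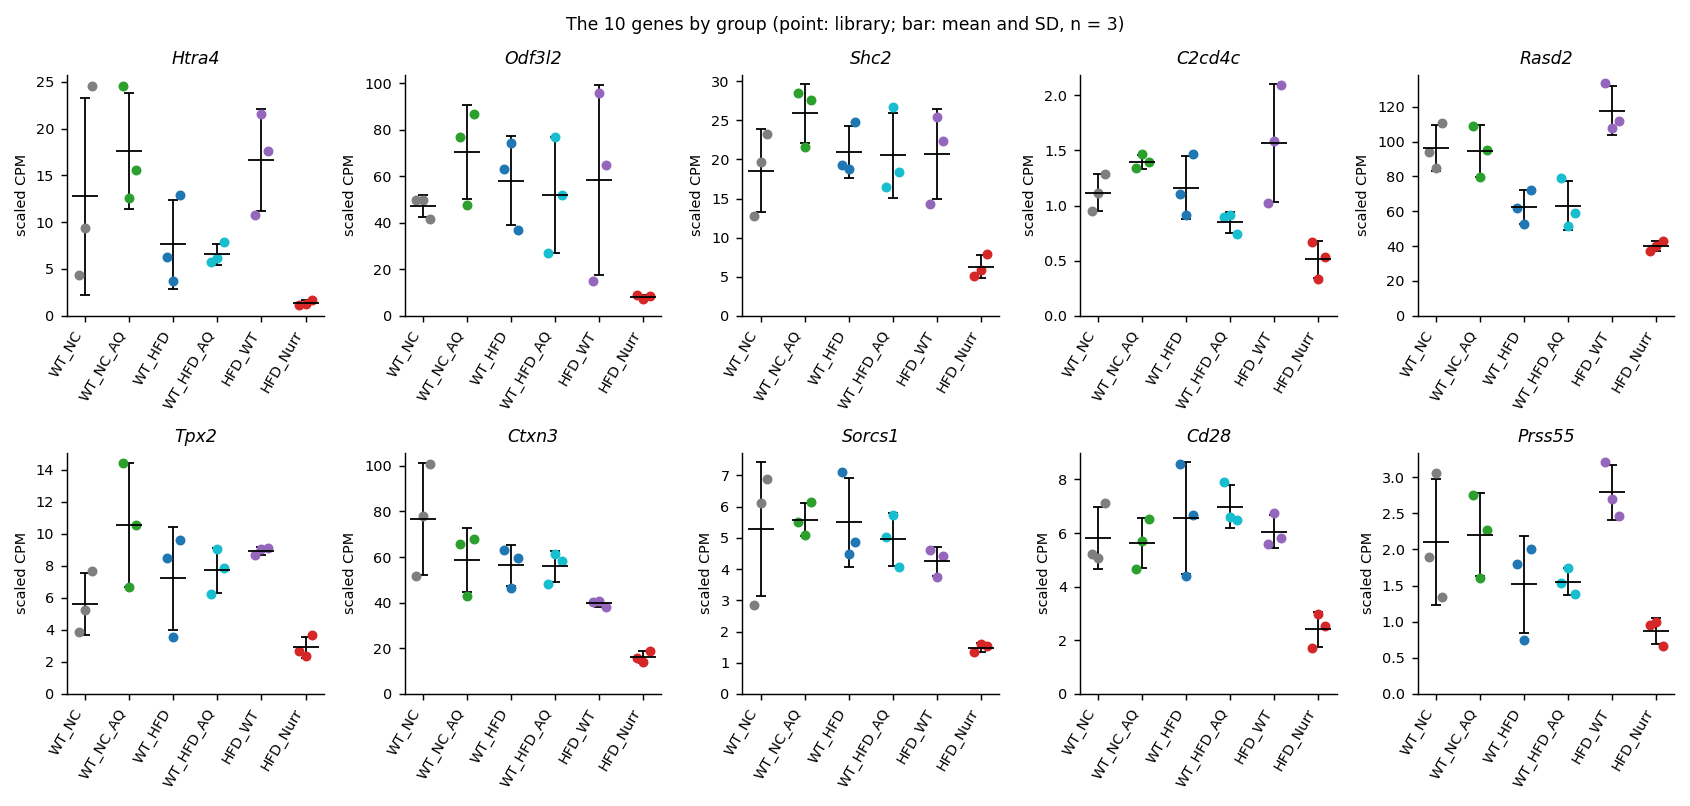
Scaled CPM of each of the 10 genes by group on linear axes from 0, where points are libraries and bars show mean and SD (n = 3). The transgenic group (red, at the right) has the lowest mean in every panel, and Rasd2 separates by diet in the 4 diet and AQ groups, at 51.6 to 78.9 on HFD and 79.6 to 111 on chow. In HFD-WT, also on HFD, Rasd2 lies at 108 to 134.

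Across the genes, all 10 had every transgenic library below every control library. The rule chose them for this, and 7.35% of all genes had that pattern. For 8 of the 10 genes all 15 wild-type libraries lay above all 3 transgenic ones, with Tpx2 and Prss55 as the exceptions. Of all genes 1.32% had that pattern. The 15 include the 3 controls, and the transgenic libraries also served to choose the genes, so the choice favours this pattern. Against the untreated HFD group alone, 8 of the 10 were lower without overlap (13.8% of all genes), and all 10 had log2 differences below 0, from -2.63 for Odf3l2 to -0.39 for Prss55. That comparison shares the transgenic libraries with the one that chose the genes. By size of the drop against the controls the genes took places 1 (Htra4), 2 (Odf3l2), 4 (Shc2), 5 (Rasd2), 7 (Tpx2), 10 (Ctxn3), 22 (Sorcs1), 23 (Cd28), 27 (Prss55) and 62 (C2cd4c) among 12524.

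Per kb of exon the order of abundance was different. Averaged over the 18 libraries Odf3l2 had 39.3 scaled CPM per kb, Ctxn3 31.6 and Rasd2 24.9. Htra4 (4.33) and Shc2 (3.47) were intermediate. Tpx2 (1.53), Prss55 (1.31), Cd28 (0.91), Sorcs1 (0.53) and C2cd4c (0.16) were low.

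HFD-WT and WT-HFD, both wild type on HFD without AQ, were not interchangeable. Between them, 4.46% of all genes passed the adjusted threshold (limma). Rasd2 (0.91) and Prss55 (0.63) were higher in HFD-WT and Ctxn3 (-0.48) lower without overlap, where 11.8% and 11.3% of all genes had such patterns, and the members' median was 0.09. Htra4 was 2.18 times higher in HFD-WT than in WT-HFD (7.62 ± 4.74, log2 difference 1.13 ± 0.44), with overlapping groups. It was therefore 12.6 times lower in transgenic muscle than in its own controls and 5.75 times lower than in WT-HFD. A clock score, log2 of Arntl minus log2 of Dbp, differed between the groups: it ranged from -1.97 to -1.46 in HFD-WT, from -3.38 to -3.05 in the transgenic group and from -4.08 to -3.54 in WT-HFD. The score did not overlap between transgenic and control libraries, and its part in the members' lower levels was not tested.

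Whether diet moves the genes was tested with limma between wild-type groups that did not serve to choose them. The spread behind these tests and those of AQ came from all 6 groups, including the groups that chose the genes. For Odf3l2 it was widest in HFD-WT, with an SD of 1.37 on log2(value + 1), against at most 0.75 (WT-HFD-AQ) in the diet and AQ groups. Between HFD and chow 0 of the 10 passed the adjusted threshold over all genes tested (0.0479% of all genes did), 1 had an unadjusted p under 0.05, edgeR called 0 and DESeq2 called 1. Over all 12524 genes 1193 had an unadjusted p under 0.05, edgeR called 5 and DESeq2 called 47. The member was Rasd2, at 62.2 ± 9.72 on HFD against 96.4 ± 13.2 scaled CPM on chow (SD, n = 3), lower in each of 3 HFD libraries than in each chow library. Its log2 difference was -0.63 ± 0.15 (SE, limma adjusted p = 0.165, DESeq2 adjusted p = 0.0340). In HFD-WT, also wild type on HFD without AQ, Rasd2 lay at 118 ± 14 scaled CPM, not below chow. No other member was separated between WT-HFD and WT-NC, where 6.1% of all genes were lower without overlap, and the adjusted p-values ranged up to 0.974. The members' median log2 difference was 0.06, and that of all genes 0.00.

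In mice given AQ, the same diet comparison called 1 of the 10, where 10.6% of all genes were called. It was again Rasd2, which fell from 94.6 ± 14.7 on chow with AQ to 63.2 ± 14.1 on HFD with AQ (log2 difference -0.59 ± 0.15, limma adjusted p = 0.0202). edgeR and DESeq2 each called 1 member as well, and 1282 and 1399 of all genes. At an unadjusted p under 0.05 were 3 members and 3177 of all genes. Over the alternatives the adjusted p of Rasd2 ranged from 0.0061 to 0.0977, and the call was lost without HFD with AQ replicate 2 or 3 or chow with AQ replicate 1 or 3 (0.0941, 0.0821, 0.0977 and 0.0686), on plain CPM (0.0527) and with each library's GC trend removed (0.0537). Htra4 was at 6.58 ± 1.12 against 17.6 ± 6.19, lower in each library, but missed the threshold (-1.25 ± 0.44, adjusted p = 0.0738). C2cd4c was at 0.847 ± 0.0938 against 1.40 ± 0.0629 (-0.38 ± 0.15, adjusted p = 0.130). These were the 3 members whose groups did not overlap, where 17.4% of all genes were lower in that way. Of the 10 genes 9 had a log2 difference below 0, with a median of -0.35 against 0.00 over all genes, and Cd28 (0.27) was the exception. The share called was thus near that of all genes.

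Whether AQ moves the genes was tested in each diet. On HFD 0 of the 10 passed (0.0479% of all genes, limma), 0 had an unadjusted p under 0.05 (1474 of all genes did), and edgeR and DESeq2 called 0 members (6 and 143 of all genes). The differences ran from -0.22 (Odf3l2) to 0.16 (Tpx2), with standard errors of 0.15 to 0.48. C2cd4c was lower in each AQ library (-0.22 ± 0.15, adjusted p = 0.623), where 8.91% of all genes were lower without overlap. The gap, from 0.913 at 11 reads to 0.910 at 13 reads, was below the worth of 1 read. The level of Rasd2 was 63.2 ± 14.1 with AQ and 62.2 ± 9.72 without, and that of Cd28 6.98 ± 0.796 and 6.55 ± 2.09.

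On chow 0 of the 10 passed (1.11% of all genes), 2 had an unadjusted p under 0.05 (1942 of all genes did), and edgeR and DESeq2 called 0 members (146 and 280 of all genes). The 2 were Tpx2, at 10.6 ± 3.88 with AQ against 5.60 ± 1.94 without (0.79 ± 0.28, limma adjusted p = 0.191), and Shc2, at 25.9 ± 3.73 against 18.6 ± 5.33 (0.49 ± 0.23, adjusted p = 0.317). Both were higher with AQ, with overlapping groups. C2cd4c was higher in each AQ library (0.18 ± 0.15, adjusted p = 0.610), where 10.9% of all genes were, but the gap, from 1.28 to 1.34, was again below the worth of 1 read (0.0637 to 0.0924 over the libraries). The test of a difference between the diets missed the threshold (-0.40 ± 0.22, limma adjusted p = 0.413). No member passed the test of a different AQ effect between diets (0.711% of all genes). At an unadjusted p under 0.05 were 0 members and 1770 of all genes, and edgeR and DESeq2 called 76 and 229 of all genes. All chow and HFD comparisons share groups with each other, and 3 libraries a group limit the precision.

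**Figure D5:**
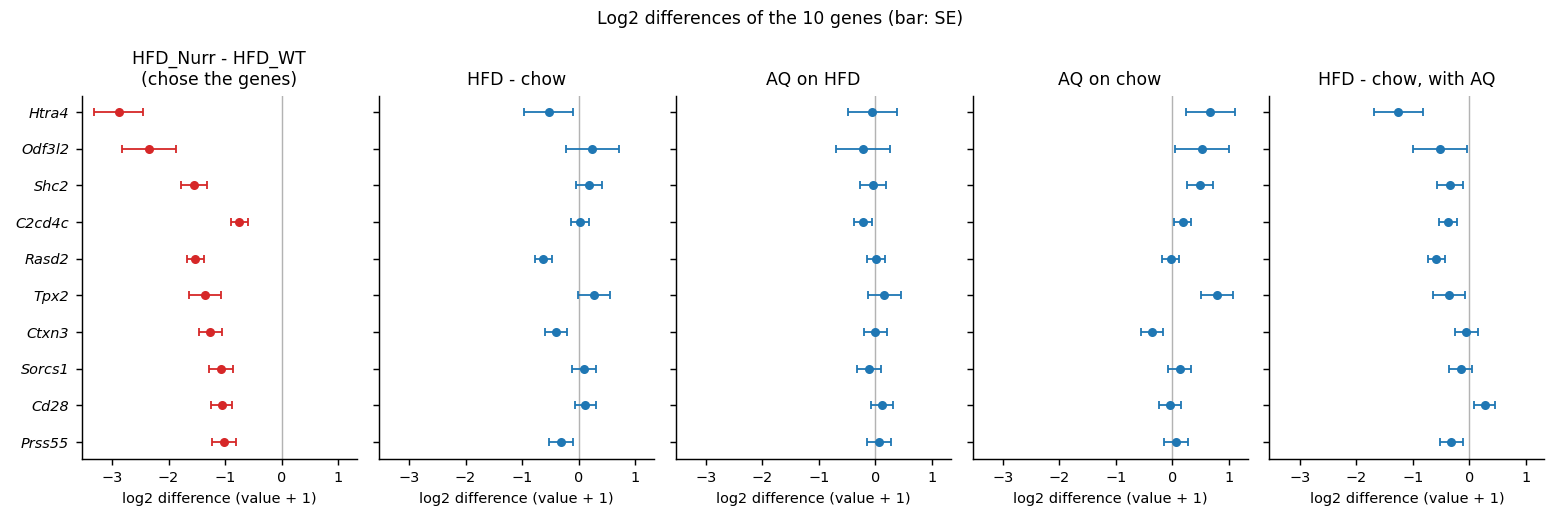
Log2 differences (log2(value + 1), bar: SE) of the 10 genes in 5 comparisons. The left panel is the contrast that chose the genes, from -2.88 to -0.75, and the others are diet and AQ comparisons in wild-type mice, where only Rasd2 for diet with AQ (-0.59) passed the adjusted threshold.

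How the members varied relative to each other was read in wild-type mice. Over the 12 libraries of the diet and AQ groups, with group means subtracted, 41 of the 45 pairs of members had a Pearson correlation above 0, with a median of 0.43. Over all 78419026 pairs of the 12524 genes 50% were above 0, with a median of 0.00. Tpx2 and Ctxn3 were closest (0.85), with Shc2 and Ctxn3 (0.83) and Htra4 and Tpx2 (0.82) next. Odf3l2 stood apart: its pairs with Rasd2 (-0.57), C2cd4c (-0.53), Cd28 (-0.35) and Htra4 (-0.25) were the 4 below 0. The members were chosen for a common direction in another contrast, and the pairs of all genes were not. Within the chow group replicate 1 was lowest and replicate 3 highest for Htra4, Shc2, C2cd4c, Tpx2, Ctxn3 and Sorcs1. That order did not hold for Odf3l2, Rasd2, Cd28 and Prss55. The pairs share members and the libraries a scaling, and these values carry no test.

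Genes most like 4 of the members were sought by Pearson correlation over all 18 libraries, a measure that includes the contrast that chose the members. The 10712 genes compared had a mean of at least 2 or were members, and unnamed gene models were left out. For Htra4 the most alike were Atp8a1 (0.93), Tpx2 (0.87) and Shc2 (0.87). Atp8a1, a phospholipid flippase gene, lay at 100.3, 89.7 and 114 scaled CPM in transgenic and 179, 168 and 192 in control libraries. It correlated with Htra4 at 0.94 over the 12 other libraries with group means subtracted. For Shc2 the most alike were Abcb4 (0.93), a phospholipid transporter gene, Ppp1r14c (0.92) and Odf3l2 (0.89). For Odf3l2 they were the zinc transporter gene Slc30a2 (0.91), Shc2 (0.89) and the cholesterol transporter gene Npc1 (0.89), and for C2cd4c Htra4 (0.86), Atp8a1 (0.80) and Pde4dip (0.80). Over the 12 other libraries with group means subtracted, all these pairs but Htra4 and Atp8a1 lay lower, from 0.27 (Odf3l2 and Shc2) to 0.83 (Shc2 and Abcb4). Odf3l2 and Npc1 were at 0.45 by that measure.

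Relatives of the members in listed families were compared between transgenic and control muscle with limma. The other HtrA genes Htra1, Htra2 and Htra3 had a median log2 difference of -0.24, with Htra3 at 60.2 ± 14.5 and 70.1 ± 5.83 and Htra1 at 30.7 ± 3.94 and 39.2 ± 5.32, and none passed. Of 11 measured Shc and receptor adaptor genes (of 12 listed) none passed, with a median of 0.07, and Ptpn11, the phosphatase SHP2, was at 231 ± 3.05 and 211 ± 12. Of 4 measured Rasd and Gem-type GTPases (of 7) none passed, with a median of -0.19 and Rasd1 at 2.21 ± 1.17 and 3.28 ± 1.55. Among 7 measured C2 domain genes (of 12) the synaptotagmin gene Syt9 was past the threshold, higher in transgenic muscle at 10.6 ± 2.07 against 2.10 ± 0.36 (1.90 ± 0.21), and the median was 0.00. The 3 measured Odf and sperm tail genes (of 12) and the 4 measured Prss genes (of 16) had medians of -0.10 and 0.05 with none past the threshold. Ctxn1 and Ctxn2 had no row. In the wild-type comparisons no gene of these families passed for diet or for AQ in either diet. On HFD with AQ against chow with AQ, where 10.6% of all genes were called, Irs2 and Esyt1 fell. Irs2, an insulin receptor substrate gene, was at 13.7 against 33.5 (log2 difference -1.14 ± 0.30, limma adjusted p = 0.0213), and Esyt1 at 34.8 against 47.6 (-0.44 ± 0.08, limma adjusted p = 0.0032). Aurka, of the spindle and proliferation list, fell too (6.04 against 9.92, -0.63 ± 0.18, limma adjusted p = 0.0304). Esyt1 also passed the test of a different AQ effect between diets (-0.59 ± 0.12, adjusted p = 0.0349).

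Markers of the cell types that muscle can hold were read beside the members, since several members are known from nerve or brain. Of Schwann cells, which wrap the nerve fibres in muscle, the myelin gene Mbp was at 40.7 ± 9.36 in transgenic and 59.7 ± 17.9 in control libraries (log2 difference -0.52), S100b at 1.58 ± 0.164 and 2.57 ± 0.742 (-0.45), and the transcription factor gene Sox10 at 2.76 ± 0.149 and 3.57 ± 0.150 (-0.28). All of these differences were below 0 and none was past the threshold. S100b and Sox10 did not overlap between the groups, where 7.35% of all genes were lower in that way. Of 8 muscle fibre genes 7 were below 0 and 1 above, with a median of -0.15 and none past the threshold, and their sum lay between 133189 and 149142 in transgenic muscle and between 134176 and 169599 in the controls. The part of either in the lower levels of Shc2, Ctxn3, Sorcs1 and the other members was not tested. The 6 adipocyte markers summed to between 324 and 360.2 in transgenic muscle and between 246 and 501 in the controls, which overlapped, and none of them was past the threshold.

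Over the 5 measured genes on each side of every member, 80 genes that are no members, 8 were lower and 7 higher in transgenic muscle without overlap, and the median log2 difference was -0.01. Of all genes 7.35% were lower in that way, and the 8 lower neighbours were near that share. For genes higher without overlap no share of all genes is given. Besides Mylk2, Mier2 and Tpgs1, the lower ones were Nr3c2 beside Rasd2, H13 beside Tpx2, C330018D20Rik beside Ctxn3, Smndc1 beside Sorcs1 and Pard3b beside Cd28, with log2 differences of -0.22 to -0.08. The higher ones were Megf10, Gm4951 and Gm4841 beside Ctxn3, Abi2 beside Cd28, and Mtmr9, Sox7 and Ints9 beside Prss55, from 0.14 to 1.52. Beside refers to the order of measured genes and not to a short distance. Gaps to the member reached 2700 kb (Smndc1) among the lower and 2790 kb (Gm4841) among the higher genes.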

How the data were processed

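Per the labels' protocols, TRIzol was used to isolate RNA, and sequencing was single-end with 50-base reads. TopHat2 2.0.12 and edgeR, with builds GRCm38 and mm10, are named in the submitters' processing notes; these sources name no counting tool, annotation or use of strand. The authors deposited scaled CPM values, a signal whose columns sum to between 929993 and 1071538; 100% of values were whole reads times a factor per library (tolerance 1e-06), so 10404895 to 16082994 reads per library were recovered.

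Differences are on log2(value + 1), which understates changes of low genes. A single limma 3.58.1 fit (R 4.3.3, trend, two-sided, 12 residual degrees of freedom) covered the 6 groups and 12524 genes with at least 1 in at least 3 libraries, with Benjamini-Hochberg adjustment over all of them and a threshold of 0.05. The labels call replicates biological without naming animals, so p-values measure the spread between these libraries. edgeR 4.0.16 and DESeq2 1.42.0 were run on recovered reads, with further alternatives (pseudocounts, filters, scalings, GC trend, replicate block, left-out libraries, clock score). Only the limma fit was also run on simulated data, for the diet and AQ comparisons without the test of a different AQ effect between diets. How well it recovers small changes is not given here.

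Members and gene lists were chosen with earlier results of these data known. Named were the 10 members, the Nr4a genes, neighbours whose groups did not overlap, up to 4 list genes past the threshold or otherwise up to 2 of the highest level, and the 3 genes most like each of 4 members; Aurka, Cd247, Cd86, Rasd1, the Schwann cell genes and neighbours shown around Odf3l2 were added after their values were seen. Symbols were matched to GENCODE vM21 (12024 directly, 465 through older symbols) and to RefSeq GRCm38.p6 (11902 and 620). Some listed marker genes, and the list summary that needs them, are not reported here.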

Additional observations from a re-analysis of the deposited data

How the results depend on the processing

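All 10 genes kept every transgenic library below every control library under plain CPM, DESeq2 size factors, removal of the GC trend, a pattern the choice of the genes favours. In a fit with the clock score as a covariate the score separates the 2 groups, so its values are not read. The sizes moved with the pseudocount: at 0.25 and 4 the log2 difference was -1.24 and -0.30 for C2cd4c, -1.44 and -0.48 for Prss55, -1.37 and -0.59 for Sorcs1 and -3.38 and -1.92 for Htra4, and at 4 it was -0.65 for Cd28; DESeq2 gave -1.62 for C2cd4c and -1.68 for Prss55. Of the diet comparison with AQ, which called 1 member, plain CPM and removal of the GC trend called 0, fitting only those groups called 2, and leaving out single libraries gave 0 to 2 (2 without chow replicate 1 or 3); the second gene was Htra4. Same-numbered replicates correlated at -0.21 to 0.31, so the numbers do not pair the libraries; the fit with a replicate block called 2 for diet with AQ, Htra4 at an adjusted p of 0.0452, and changed no other count of members. DESeq2 called 1 member for diet. The count over all genes behind the 10.6% ranged from 573 to 1728 over the alternatives, that behind 1.11% from 12 to 280, that behind 0.711% from 3 to 229, and those behind 0.0479% from 0 to 47 for diet and 0 to 224 for AQ on HFD. The causes were not tested. C2cd4c, at 5 to 28 reads, and Prss55 are limited by depth.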
